A study of Mus musculus with 6 samples.

Results

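The Fc gamma receptor genes Fcgr1, Fcgr2b, Fcgr3 and Fcgr4 and the signalling chain gene Fcer1g were followed in 6 RNA-seq libraries of mouse leukaemia cells. These 5 genes were chosen by their symbols, as the receptors for the constant part of IgG together with the subunit that the activating receptors share, out of 49585 genes in the deposited table. The cells were bone marrow leukaemias named MA9 in the labels, which commonly stands for MLL-AF9, a fusion oncogene of acute myeloid leukaemia. They carried either loxP-flanked Gata2 alleles (genotype Gata2 f/f, named f-f in the sample descriptions) or a Gata2 deletion (genotype Gata2 -/-, called Gata2 KO here and named Cre in the descriptions). There were 3 samples of each genotype, numbered 1 to 3, and all 6 had been grown with murine IL-3, IL-6 and SCF and treated with 5 uM Nutlin for 18 h. Nutlin keeps MDM2 from binding p53 and so raises p53 activity, and no untreated culture was analysed here. Effects of Cre and of the deletion cannot be told apart, since every deleted sample is also named Cre, and the labels give neither the sex nor the age of the mice nor whether the 3 samples of a genotype came from separate leukaemias. P-values therefore measure the spread between these samples, which may be technical.

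As background, Fc gamma receptors sit on phagocytes and bind IgG on coated particles. Fcgr1, Fcgr3 and Fcgr4 encode ligand-binding chains that have no activating motif of their own and signal through the gamma chain encoded by Fcer1g, which also keeps them at the cell surface. The gamma chain carries an immunoreceptor tyrosine-based activation motif (ITAM), whose tyrosines are phosphorylated by Src-family kinases and then bind the kinase Syk. Fcgr2b encodes the inhibitory receptor of the family, which carries an inhibitory motif (ITIM) that recruits phosphatases. In the myeloid lineage the balance of activating to inhibitory receptors sets how a cell responds to immune complexes.

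The coding stretches of the ITAM of the activating chain and of the ITIM of the inhibitory receptor are shown. They were found by translating the first annotated GENCODE M21 transcript of each gene and searching the reading frame, and the capitals mark the tyrosine codons.
Fcer1g ITAM, codons 65 to 79 of 86: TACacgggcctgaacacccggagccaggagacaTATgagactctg
Fcgr2b ITIM, codons 317 to 322 of 340: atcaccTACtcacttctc
Of the 5 reading frames, only that of Fcer1g held an ITAM. The short ITIM pattern also occurred in the reading frames of Fcgr1, Fcgr4 and Fcer1g, so a match to it does not by itself show a functional site.

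Library depth ran from 17138687 to 26440960 counts. Levels below are CPM, counts relative to library size, scaled by the TMM method (trimmed mean of M values). Gata2 itself, the targeted gene, measured 33.6, 22.3 and 18.4 CPM across f/f libraries 1 to 3. KO 1 had 5.44 CPM and KO 3 had 4.33 CPM, but the library labelled KO 2 had 43.3 CPM. That library goes against its label at Gata2, and every genotype difference below includes it unless said otherwise. Without it, with the number as a block, the log2 fold changes were 0.89 for Fcgr1, 0.13 for Fcgr2b, 1.13 for Fcgr3, 1.41 for Fcgr4 and 0.92 for Fcer1g, and no member passed the test (edgeR, adjusted p = 0.129 to 0.972), where 0.378% of genes were called and 0.231% as higher in KO. In that fit f/f 2 had no KO library of its number, so the genotype difference rested on numbers 1 and 3. The libraries numbered 3 of both genotypes also stood apart. The 17 monocyte and macrophage markers summed to 3557 and 4067 CPM in Gata2 f/f 3 and KO 3, against 840 to 1763 CPM in the other 4 libraries. The 13 neutrophil markers summed to 2151 and 3980 CPM there and to 317 to 1968 CPM elsewhere, with KO 1 at the top of that range. In bulk RNA, more cells of a type and more RNA per cell cannot be told apart.

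The 5 transcripts were present in every library, and all passed the filter on low counts. Compared per kilobase of annotated exon, Fcer1g had the highest level of the 5 and Fcgr3 the next in each of the 6 libraries. In Gata2 f/f the mean level per kilobase was 176 ± 133 for Fcer1g, 96.8 ± 72.3 for Fcgr3, 12.6 ± 8.60 for Fcgr4, 12.4 ± 3.41 for Fcgr2b and 4.87 ± 5.24 for Fcgr1 (CPM per kb, SD, n = 3). In Gata2 KO the same means were 334 ± 317 for Fcer1g, 189 ± 162 for Fcgr3, 29.1 ± 29.9 for Fcgr4, 13.6 ± 3.50 for Fcgr2b and 6.52 ± 4.92 for Fcgr1. Fcer1g and Fcgr3 lay within each other's spread over libraries, as did Fcgr4 and Fcgr2b in Gata2 f/f, and Fcgr2b was above Fcgr1 in 5 of the 6 libraries, while Fcgr3 was above Fcgr4 and Fcgr2b in each library. The place of Fcgr2b depends on the length used, since its merged exons span 5.79 kb and its first annotated transcript 3.544 kb. With the transcript length it was at 20.3 ± 5.57 CPM per kb in Gata2 f/f, above the 12.6 of Fcgr4.

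Fcgr3 is the activating receptor for immune complexes of the family and the most abundant ligand-binding chain here. It lies on chromosome 1 (GRCm38, 171051174 to 171064935, minus strand, protein-coding). Its CPM values were 85.7 (f/f 1), 106 (f/f 2) and 313 (f/f 3), against 198 (KO 1), 135 (KO 2) and 649 (KO 3). The libraries numbered 3 were the highest of each genotype, and Gata2 f/f 3 lay above KO 1 and KO 2, so the genotypes overlapped. Means were 168 ± 126 CPM in f/f and 327 ± 280 CPM in KO (SD, n = 3 each). This gave 0.96 ± 0.72 as log2 fold change (SE; 95% confidence interval -0.74 to 2.66), with no call by the quasi-likelihood test of edgeR (adjusted p = 1.00 among 13744 genes).

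Fcer1g (chromosome 1, 171229572 to 171234365, minus strand) followed Fcgr3 closely. Its CPM values were 86.8 (f/f 1), 85.5 (f/f 2) and 288 (f/f 3), against 146 (KO 1), 117 (KO 2) and 611 (KO 3). Again the libraries numbered 3 were the highest, and Gata2 f/f 3 exceeded KO 1 and KO 2. Means were 153 ± 117 CPM in f/f and 292 ± 277 CPM in KO. Its log2 fold change was 0.93 ± 0.76 (-0.87 to 2.73) and did not pass edgeR's test (adjusted p = 1.00). Per kilobase, the ratio of Fcer1g to Fcgr3 ran only from 1.47 to 2.01 over the 6 libraries, a 1.37-fold range, while Fcer1g itself spanned 7.15-fold.

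Fcgr4, the other receptor on this part of chromosome 1 that depends on the gamma chain (171018920 to 171029761, plus strand), was much lower. Its CPM values were 7.07 (f/f 1), 12.5 (f/f 2) and 27.9 (f/f 3), against 17.4 (KO 1), 12.3 (KO 2) and 79.7 (KO 3). KO 3 stood alone at the top, and KO 1 and KO 2 lay within the Gata2 f/f range. Means were 15.8 ± 10.8 CPM in f/f and 36.5 ± 37.5 CPM in KO, and the log2 fold change was 1.20 ± 0.80 (-0.69 to 3.10; edgeR, adjusted p = 1.00). The ratio of Fcgr4 to Fcgr3 per kilobase ran from 0.114 to 0.170.

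Fcgr1, the high-affinity IgG receptor, lies on chromosome 3 (96282909 to 96293969, minus strand) and had the lowest level per kilobase in 5 of the 6 libraries. Its CPM values were 4.16 (f/f 1), 5.40 (f/f 2) and 28.2 (f/f 3), against 13.7 (KO 1), 6.03 (KO 2) and 30.9 (KO 3), from raw counts of 73 to 736. The libraries numbered 3 of both genotypes were alike at the top, and KO 1 lay between them and the rest. Means were 12.6 ± 13.6 CPM in f/f and 16.9 ± 12.8 CPM in KO, and the log2 fold change was 0.42 ± 0.86 (-1.60 to 2.44; edgeR, adjusted p = 1.00).

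Fcgr2b, the inhibitory receptor (chromosome 1, 170958617 to 170976547, minus strand), had another pattern. Its CPM values were 53.5 (f/f 1), 69.1 (f/f 2) and 92.7 (f/f 3), against 99.96 (KO 1), 75.8 (KO 2) and 59.7 (KO 3). Of the 3 libraries labelled KO, number 3 was the lowest, where the 4 other genes had their highest value of all. The whole range over 6 libraries was 1.87-fold, against 7.15-fold to 11.3-fold for the other 4 genes. Its SD of log2 CPM over the 6 libraries was 0.35, near the median of 0.42 over all genes tested. That of the other 4 genes was 1.09 to 1.25. Means were 71.8 ± 19.7 CPM in f/f and 78.5 ± 20.3 CPM in KO. The log2 fold change was 0.13 ± 0.30 (-0.56 to 0.82) and did not pass edgeR's test (adjusted p = 1.00).

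**Figure D1:**
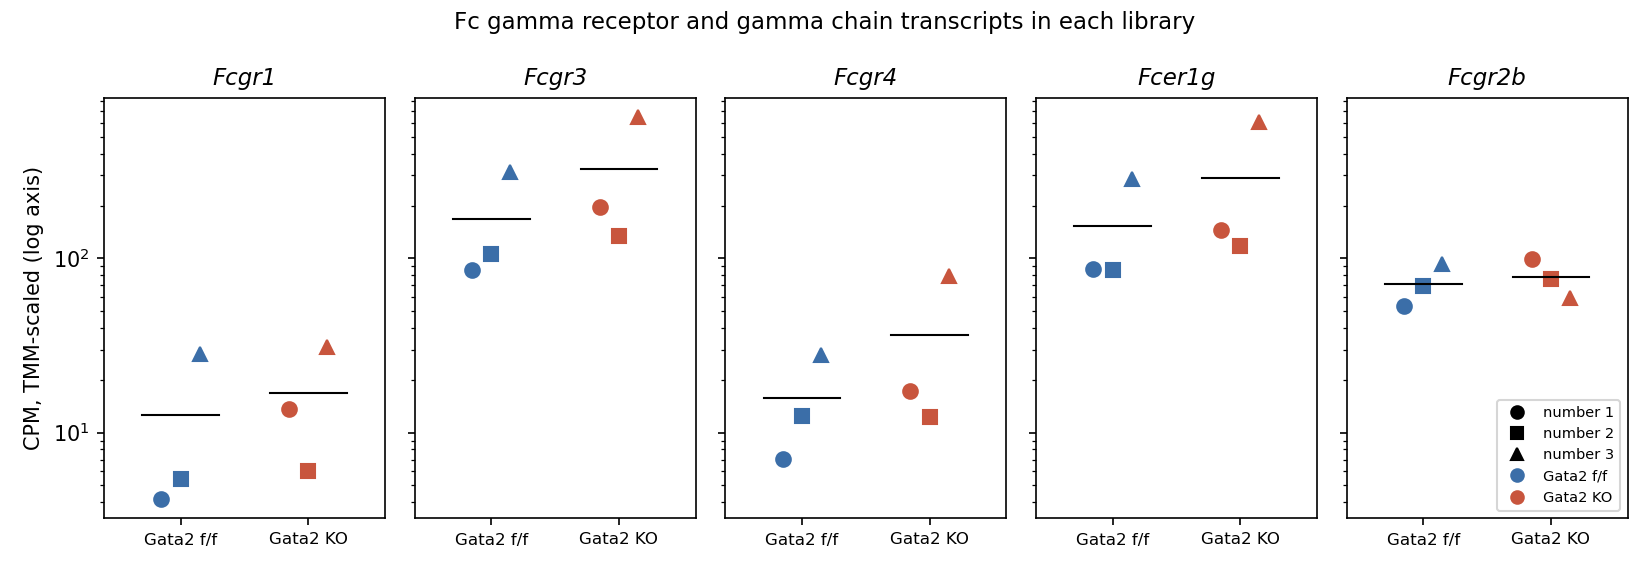
TMM-scaled CPM (log axis) of each gene in the 3 Gata2 f/f (blue) and 3 Gata2 KO (red) libraries; the symbol gives the library number and the line the group mean. Number 3 is highest in both genotypes for Fcgr1, Fcgr3, Fcgr4 and Fcer1g, while Fcgr2b stays between 53.5 and 99.96 CPM, with KO 3 the lowest of the KO libraries.

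The level of activating relative to inhibitory transcripts therefore differed between libraries. Per kilobase, the ratio of Fcgr3 to Fcgr2b was 5.34, 5.11 and 11.2 in Gata2 f/f 1, 2 and 3 and 6.59, 5.95 and 36.3 in Gata2 KO 1, 2 and 3. It lay between 5.11 and 6.59 in the 4 libraries numbered 1 and 2 and was higher in both libraries numbered 3. Within each number it was higher in the KO library. Fcgr4 to Fcgr2b was also higher in number 3, with 0.609 to 0.833 in those 4 libraries, 1.39 in Gata2 f/f 3 and 6.16 in KO 3. Within number 2, however, this ratio was lower in KO (0.750) than in f/f (0.833). Fcgr1 to Fcgr2b was 0.174 to 0.307 in those 4, 0.681 in Gata2 f/f 3 and 1.16 in KO 3. KO exceeded f/f in numbers 1 and 3, while in number 2 they were nearly equal (0.178 in KO and 0.175 in f/f). As a share of the 5 genes' summed level per kilobase, Fcgr2b was 5.44% to 6.53% in the libraries numbered 1 and 2, 2.87% in Gata2 f/f 3 and 0.889% in KO 3. These ratios are descriptions with no test. The height of a ratio depends on the exon lengths used, but its fold difference between libraries does not.

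**Figure D2:**
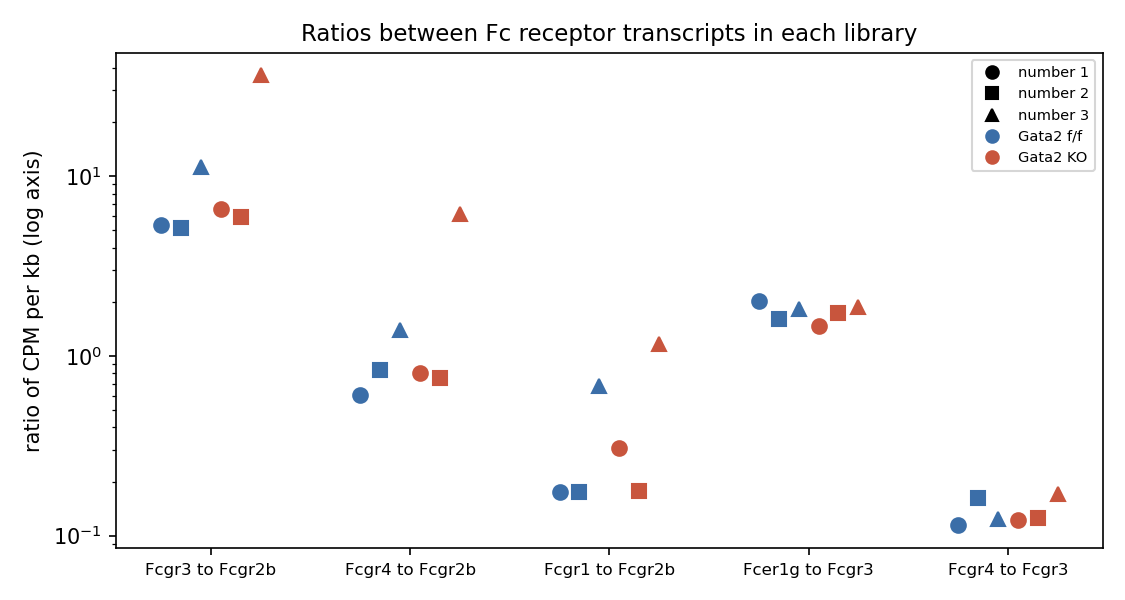
Ratios of CPM per kb (log axis) between Fc receptor transcripts in each library, coloured by genotype with the symbol for the library number. Ratios to Fcgr2b are set apart in both libraries numbered 3, reaching 36.3 for Fcgr3 in KO 3, while Fcer1g to Fcgr3 stays between 1.47 and 2.01.

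No member was called by genotype in the comparison without a block, where edgeR called 0% of the 13744 genes tested (171 had an unadjusted p under 0.05, none of them a member); limma voom called 0% and DESeq2 0.0509%, and neither called a member (0.0146% of genes were called higher in KO by DESeq2). No member had its 3 KO libraries all above or all below the 3 f/f libraries, as 2.64% and 2.78% of genes had. All 5 log2 fold changes were positive, with a median of 0.93, against a median of 0.02 and 52.5% positive values over all genes tested. Leaving out 1 library numbered 3 turned or raised the values of Fcgr1, Fcgr3, Fcgr4 and Fcer1g. Without Gata2 KO 3 they were -0.38, -0.038, -0.11 and -0.24, and without Gata2 f/f 3 they were 1.78, 1.74, 1.86 and 1.73. These fits keep only 1 library numbered 3, on 1 side of the comparison.

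Equal numbers were taken to pair the samples, an assumption that no label states. Comparing libraries of the same number gave narrower intervals for each member but Fcgr2b. Within numbers 1, 2 and 3 the log2 difference of KO over f/f was 1.20, 0.35 and 1.05 for Fcgr3, 0.75, 0.46 and 1.09 for Fcer1g, and 1.70, 0.16 and 0.13 for Fcgr1. These 3 genes were higher in the KO library of every number, as were 20.7% of all genes tested. For Fcgr4 the differences were 1.29, -0.019 and 1.51, and for Fcgr2b 0.90, 0.13 and -0.64, so that the inhibitory receptor was higher in the KO library of number 1 and lower in that of number 3. With the number as a block, edgeR gave a log2 fold change of 0.87 (95% interval 0.38 to 1.37) for Fcgr3, 0.77 (0.34 to 1.19) for Fcer1g, 0.95 (0.15 to 1.74) for Fcgr4, 0.64 (-0.21 to 1.499) for Fcgr1 and 0.13 (-0.58 to 0.84) for Fcgr2b. The unadjusted p-values of edgeR with the block were 0.00465 for Fcgr3, 0.00401 for Fcer1g and 0.0260 for Fcgr4, but over all genes none was called (adjusted p = 0.397 for the first pair and 0.431 for Fcgr4), nor was any other gene (0%).

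DESeq2 with the block called Fcgr3 (log2 fold change 0.85, adjusted p = 0.0249) and Fcer1g (0.75, adjusted p = 0.0427) as higher in Gata2 KO, and not Fcgr4 (0.93, adjusted p = 0.141), Fcgr1 (0.63, adjusted p = 0.539) or Fcgr2b (0.11, adjusted p = 0.940). It called 1.62% of all genes tested, and 1.31% as higher in KO. The call of Fcer1g depended on the filter: without a filter on low counts its adjusted p was 0.0623 and that of Fcgr3 0.0364, where 0.881% of genes were called and 0.702% as higher in KO. In DESeq2 with the block and the filter, 6 of 12 tested neutrophil markers and 3 of 17 monocyte and macrophage markers were also called as higher in Gata2 KO, and their part in the receptor difference was not tested. Without both libraries numbered 3, the unblocked edgeR values were 0.76 for Fcgr3, 0.58 for Fcer1g, 0.56 for Fcgr4, 1.00 for Fcgr1 and 0.48 for Fcgr2b, all positive and none called (adjusted p = 0.540 to 0.744).

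**Figure D3:**
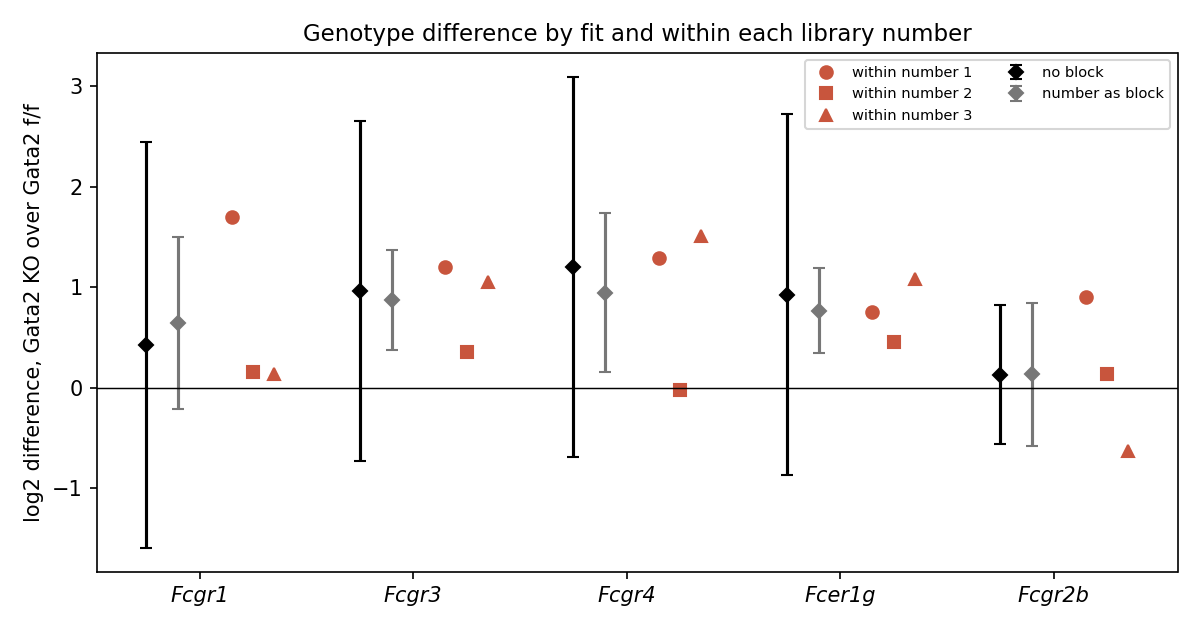
Log2 difference of Gata2 KO over Gata2 f/f for each gene from edgeR without a block (black) and with the library number as a block (grey), with 95% confidence intervals, and the difference within each number (red). Unblocked intervals all span 0, while blocked intervals of Fcgr3, Fcgr4 and Fcer1g lie above 0 before adjustment over all genes, and Fcgr2b runs from 0.90 to -0.64 across the numbers.

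The library number separated the activating genes more than the genotype did. An edgeR F test of the number, with genotype in the fit, called 4 of the 5 members, Fcer1g (adjusted p = 0.00875), Fcgr3 (0.0141), Fcgr4 (0.0341) and Fcgr1 (0.0344), and not Fcgr2b (0.978). It called 9.09% of all genes tested. These 4 genes had both libraries numbered 3 above the other 4, as had 21.1% of all genes. The mean of the libraries numbered 3 was 3.67-fold to 4.36-fold that of the other 4 for the 4 activating genes and 1.02-fold for Fcgr2b. For Fcgr2b this value averages opposite moves. Number 3 was 1.51-fold the mean of the other f/f libraries in f/f and 0.679-fold that of the other KO libraries in KO. The F test of the number does not detect such opposite moves. What the number stands for is not given in the sources used here. That number 3 stands apart was known from earlier results of these data.

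Markers of other cell types that carry these receptors were counted in the same libraries. Of 7 B cell markers, a lineage in which Fcgr2b is the main Fc gamma receptor, Pax5 was at 0 in all 6 libraries and Cd79b was the highest, and the 7 summed to 1.72 to 6.50 CPM. NK cell markers, of a lineage that bears Fcgr3, summed to 0.271 to 1.09 CPM, with Ncr1, Klrb1c and Klra8 at 0 in every library. Mast cell and basophil markers summed to 6.21 to 21.2 CPM, with Fcer1a, the ligand-binding chain that pairs with the gamma chain there, at 0 in 5 libraries. The 8 dendritic cell markers summed to 62.9 and 75.3 CPM in f/f 3 and KO 3 and to 4.55 to 11.1 CPM elsewhere, mostly from Itgax in number 3, with Siglech at 0 in every library. Eosinophil markers summed to 29.0 CPM in the library labelled KO 2 and to 2.52 to 5.31 CPM elsewhere. As single genes, Fcer1g, Fcgr3 and Fcgr2b were at 53.5 CPM or more in every library. In KO 3 the dendritic cell sum of 75.3 CPM lay above Fcgr2b at 59.7 CPM. The monocyte and neutrophil marker sums put the 6 libraries in the same order as Fcgr3 did. The dendritic cell sum shared only the rise in number 3. The part of these cell types in the receptor levels was not tested.

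Sequence shared with other genes limits the counts of Fcgr2b and Fcgr3. The coding sequences of Fcgr2b and Fcgr3 were identical at 83.7% of aligned bases, and the longest run they shared was 129 bases, in the part that encodes the extracellular region. It is shown because a read of 90 bases from it can come from either gene.
Fcgr2b and Fcgr3 shared run: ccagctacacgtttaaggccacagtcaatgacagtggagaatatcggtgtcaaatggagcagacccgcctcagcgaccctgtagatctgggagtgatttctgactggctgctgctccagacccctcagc
Of all 90-base windows of the annotated Fcgr3 transcripts, 3.69% also occurred in Fcgr2b, and 1.10% of the Fcgr2b windows occurred in Fcgr3. In all, 4.87% of the Fcgr2b windows occurred in any of 30 other genes, with the largest share in Cplx2 (2.18%). Fcgr1, Fcgr4 and Fcer1g shared no such window with another gene. An antisense gene, Gm38204, overlaps 2.68% of the exonic bases of Fcgr2b and had at most 2 counts.

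The promoter windows of Fcgr1 and Fcgr3 are shown because both activating genes, on different chromosomes, hold the letters TTCCTC before their start. This is GAGGAA, a core of sites known for the myeloid transcription factor PU.1 (encoded by Spi1), on the opposite strand. The capitals mark it, the sequences are those of RefSeq (GRCm38.p6), and each ends just before the start that RefSeq gives. For Fcgr3 that start lies inside the gene as GENCODE M21 draws it, whose 5′ end is at 171064935.
Fcgr1, chr3:96293970-96294119, minus strand: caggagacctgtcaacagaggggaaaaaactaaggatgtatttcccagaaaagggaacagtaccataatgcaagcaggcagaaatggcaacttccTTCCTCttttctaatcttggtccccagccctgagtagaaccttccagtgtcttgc
Fcgr3, the upstream of 2 starts, chr1:171059404-171059553, minus strand: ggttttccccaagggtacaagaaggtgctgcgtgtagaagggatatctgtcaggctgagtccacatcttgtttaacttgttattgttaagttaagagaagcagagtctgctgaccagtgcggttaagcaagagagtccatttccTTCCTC
All 5 genes had a promoter entry. GAGGAA on either strand was found in the 150 bases before the start of Fcgr1, Fcgr3 and Fcgr4 and not in those of Fcgr2b or Fcer1g. It occurred in 14.5% of 32851 promoter windows of that length. The Fcgr2b window lies inside its gene as GENCODE M21 draws it, with 103 of its 150 bases exonic, which limits its comparison with the others. AGATAA, letters of a GATA factor site, was in none of the 5 genes' windows and in 5.65% of all windows. TTCNNNGAA, letters of a STAT site, was in the Fcgr1 window and in 4.09% of all. No motif was tested, and the letters do not show binding.

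Among transcription factors known to act on Fc receptor genes, Spi1 had CPM values of 259, 220 and 352 across f/f libraries 1 to 3, against 500, 299 and 636 across KO libraries 1 to 3. KO 1 and KO 3 lay above all Gata2 f/f libraries and the library labelled KO 2 did not. Its log2 fold change was 0.79 ± 0.34 (edgeR, adjusted p = 1.00), and it passed in DESeq2 when blocked by number (0.73, adjusted p = 0.0384). Of the 11 such genes tested, 8 had positive values, with a median of 0.31, and none was called by edgeR. Irf1, an interferon-induced factor, had 0.41 ± 0.28, and Gabpa, a ubiquitous ETS factor, was the lowest of the 11 at -0.44 ± 0.28.

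Of 16 ITAM kinases and adaptors, all tested, 11 had positive values (median 0.23) and none was called by edgeR with or without the block. Syk, which docks on the phosphorylated ITAM, had CPM values of 184, 145 and 227 across f/f libraries 1 to 3, against 329, 185 and 272 across KO libraries 1 to 3 (0.50 ± 0.29). Lyn, a Src-family kinase, had 0.53 ± 0.46 and the adaptor Lcp2 0.38 ± 0.32. DESeq2 with the block called 2 of the 16, among them the Src-family kinase Fgr (2.21, adjusted p = 3.4e-05), against 1.31% of all genes called as higher in KO. Fgr had CPM values of 1.88, 1.07 and 50.2 across f/f libraries 1 to 3, against 23.0, 5.43 and 93.2 across KO libraries 1 to 3, so f/f 3 lay above KO 1 and KO 2.

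Genes further down the pathway were counted in the same way. Among 21 lipid signalling enzymes 12 were positive (median 0.06), and among 28 tested genes of actin and the phagocytic cup 19 were (median 0.19). None was called by edgeR, nor by DESeq2 with the block. The lipid kinase gene Sphk1 had 1.46 ± 0.90 at no more than 7.98 CPM, Prkcd, a protein kinase C, had 0.42 ± 0.34, and Pik3cb, a catalytic subunit of phosphoinositide 3-kinase, was at -0.42 ± 0.25. The GTPase gene Rac2, which drives phagocyte actin, had 0.57 ± 0.34, the Arp complex subunit Arpc1b 0.60 ± 0.28 and the dynamin gene Dnm2 0.50 ± 0.27.

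The inhibitory arm downstream of Fcgr2b held 12 genes, of which 7 had positive values (median 0.13) and none was called by edgeR. Inpp5d, the lipid phosphatase that the Fcgr2b ITIM recruits (named after its values were seen), had CPM values of 187, 166 and 241 across f/f libraries 1 to 3, against 318, 200 and 162 across KO libraries 1 to 3. Like Fcgr2b, it was highest in KO 1 and lower in KO 3 than in Gata2 f/f 3. This pattern was not particular to the inhibitory arm. Cbl and Dock2 of the activating lists (named after their values were seen) had it too, at 206 and 424 CPM in KO 1. They were at 63.7 and 201 CPM in KO 3, against 177 and 218 CPM in f/f 3. The share of all genes with this pattern was not counted. Ptpn6, a tyrosine phosphatase, had 0.61 ± 0.29 and the adaptor Dok2 0.44 ± 0.34. Dok3, an adaptor that dampens ITAM signals, had CPM values of 68.2, 59.7 and 93.7 across f/f libraries 1 to 3, against 134, 80.0 and 200 across KO libraries 1 to 3 (0.90 ± 0.36), and it passed in DESeq2 when blocked by number (0.81, adjusted p = 0.0317).

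Other receptors of the same kinds were counted as well. All 6 tested genes of other signalling adaptors and gamma chain partners had positive values (median 0.59). Both libraries numbered 3 were above the other 4 for each of them, as for 21.1% of all genes. Tyrobp, the ITAM adaptor most like the gamma chain in role, had CPM values of 168, 182 and 452 across f/f libraries 1 to 3, against 235, 236 and 795 across KO libraries 1 to 3 (0.66 ± 0.61). Hcst, another adaptor, had 0.81 ± 0.45, and Clec4d, a lectin receptor that signals through the gamma chain, 0.55 ± 1.05. Of 15 tested myeloid ITIM receptors 13 were positive (median 0.55). DESeq2 with the block called 4 of them, Pirb, Siglece, Cd22 and Pilra, all higher in Gata2 KO, where it called 1.31% of all genes as higher. Siglece had 1.41 ± 1.07 without the block, Ceacam1 0.70 ± 0.39 and Milr1 0.67 ± 0.51. In 12 of the 15 ITIM receptors both libraries numbered 3 lay highest, as in 21.1% of all genes. Fcgr2b, which stayed within 1.87-fold, did not have this layout. Nor did Clec12a (262 to 417 CPM), Pecam1 (116 to 195 CPM) or Ceacam1, all named here after their values were seen. These contrasts were not tested.

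Of 14 genes of other Fc receptors and Fc receptor-like proteins 6 were tested, 4 of them with positive values (median 0.47) and none called by edgeR or by DESeq2 with the block. Ms4a2, the beta chain of the IgE receptor, had 1.06 ± 0.71, with 6.62 CPM in the library labelled KO 2 and 1.19 to 1.83 CPM in the other 5. Pigr, the polymeric Ig receptor, was at -0.36 ± 0.35, and Fcrls, an Fc receptor-like gene, at 0.75 ± 0.49 with at most 1.05 CPM. The highest of the 6, named after their values were seen, were Trim21, a cytosolic antibody receptor, at 8.04 to 16.5 CPM, and Fcgrt, the neonatal Fc receptor chain, at 3.26 to 16.6 CPM.

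**Figure D4:**
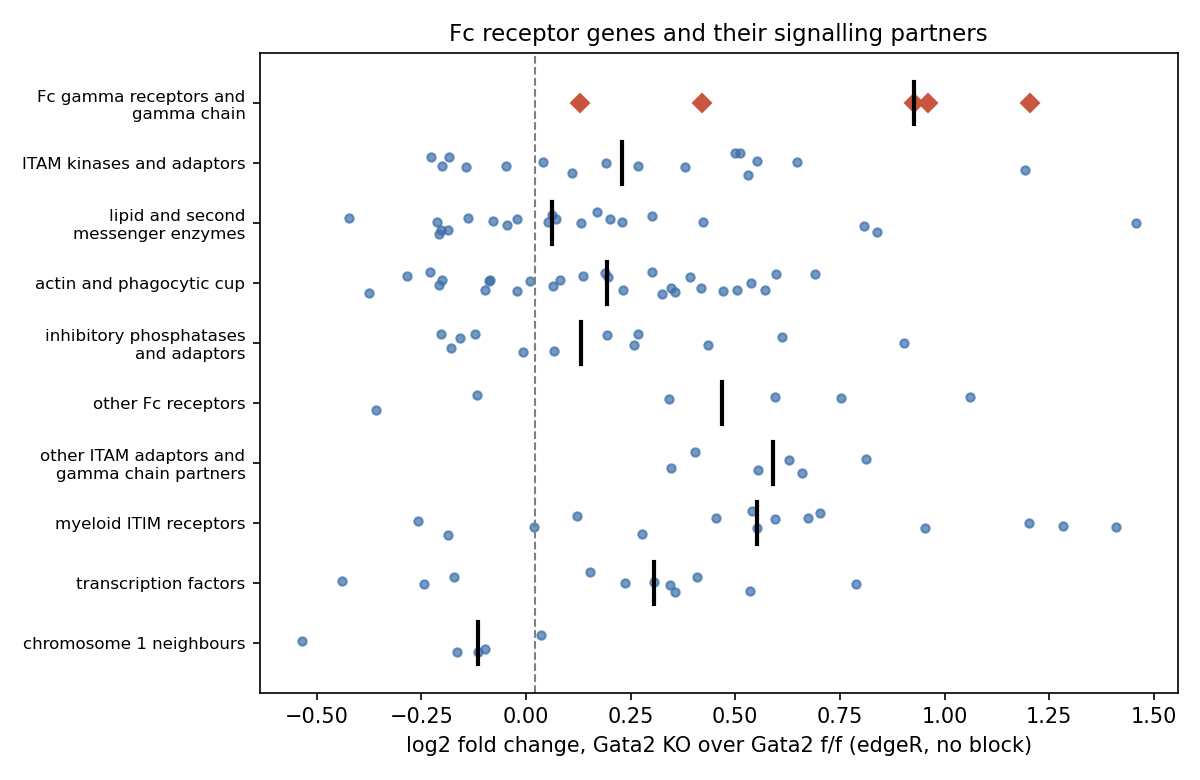
Log2 fold change of Gata2 KO over Gata2 f/f (edgeR, no block) of the Fc receptor genes (red) and of the tested genes of each pathway list and of the chromosome 1 neighbours (blue); black bars are medians and the dashed line the median of all genes tested, 0.02. Medians of the signalling lists run from 0.06 to 0.59 and that of the neighbours is -0.11.

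Between the ends of Fcgr2b and Fcer1g the annotation holds 7 other protein-coding genes, of which 5 were tested, and 4 of these had negative values (median -0.11, none called by edgeR or by DESeq2 with the block). Sdhc, a subunit of mitochondrial complex II, had CPM values of 125, 129 and 144 across f/f libraries 1 to 3, against 98.8, 116 and 153 across KO libraries 1 to 3 (-0.11 ± 0.23). Pcp4l1 had -0.54 ± 0.41 and Tomm40l -0.17 ± 0.33. Of the 5, 1 had both libraries numbered 3 above the other 4, as had 21.1% of all genes, and Sdhc was that gene.

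Genes whose pattern was most like that of each member were found by the root mean square difference of log2 CPM around each gene's mean over the 6 libraries, among 8440 protein-coding genes with a mean of at least 10 CPM over the libraries. Fcer1g was nearest to the MHC class I gene H2-D1 (0.12), followed by Plekho1 (0.13) and Shisa5 (0.15), where the median candidate stood at 1.08. H2-D1 has close paralogues, so its count is uncertain. Fcgr3 was nearest to Hcfc1r1 (0.08), Anxa2 (0.12) and H2-D1 (0.14), and Fcgr4 to Mcemp1 (0.14), S100a11 (0.21) and Hcfc1r1 (0.26). Fcgr1 was nearest to the immediate early genes Jun (0.14) and Fos (0.16) and to Itgam (0.17), the integrin chain of the phagocytic complement receptor. Fcgr2b had Tm6sf1 (0.07), Slc25a44 (0.08) and Irak3 (0.11), a negative regulator of Toll-like receptor signals. The median candidate stood nearer to Fcgr2b, at 0.45, than to the other 4 members, at 1.05 to 1.19. Among the members, Fcgr3 and Fcer1g were 0.15 apart, Fcgr3 and Fcgr4 0.22, and Fcgr2b was 0.99 to 1.12 from each of the other 4. Likeness over 6 libraries that fall into 2 levels by number is a description only.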

How the data were processed

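Whole-number counts per gene were deposited by the authors in a single table with 1 column per sample. Kallisto, HTSeq and DESeq2 and the build mm10 are named, with no role or version, per the submitters' processing notes; the strand setting is not given in the sources used here. Of 49585 identifiers, 49326 matched GENCODE M21 (GRCm38) without the version, and the rest held 0.00962% of counts. From these counts, genes were kept by filterByExpr (minimum count 10; 13744 genes) and compared by edgeR's quasi-likelihood test with TMM scaling and Benjamini-Hochberg adjustment at 0.05 (R 4.3.3, edgeR 4.0.16, limma 3.58.1, DESeq2 1.42.0). The fit was tested on simulated data. Log values used a prior count of 2. Counts are of reads without molecular identifiers.

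Deviations from the group means correlated at 0.29, 0.55 and 0.65 across genotypes within numbers 1, 2 and 3, so numbers were taken to pair the samples. This does not show that numbers 1 and 2 pair, since f/f 1 and KO 2 reached 0.46. With number 3 apart in both genotypes, the remaining libraries tend to correlate whatever their pairing. No label explains the numbers. The genes named were the 5 members, Gata2, up to 3 tested genes of smallest p per list and of the chromosome 1 neighbours, and the 3 nearest genes to each member; genes of a list called by DESeq2 with the block were named after their values were seen. Members, lists and tests were chosen with earlier results of these data known.

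Alternatives were DESeq2 size factors, upper-quartile scaling, 2 other filters, DESeq2, limma voom, the replicate block with edgeR and DESeq2, and leaving out libraries. DESeq2 with the block and no low-count filter was added after the data were seen. Values of some listed genes are not reported here.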

Additional observations from a re-analysis of the deposited data

How the results depend on the processing

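Leaving out each library in turn moved the log2 fold change from -0.38 to 1.78 for Fcgr1, from -0.10 to 0.31 for Fcgr2b, from -0.038 to 1.74 for Fcgr3, from -0.11 to 1.86 for Fcgr4 and from -0.24 to 1.73 for Fcer1g, with no call. The direction turned without Gata2 f/f 1 for Fcgr1 (-0.028) and Fcgr2b (-0.091), without Gata2 KO 1 for Fcgr2b (-0.10), and without Gata2 KO 3 for Fcgr1 (-0.38), Fcgr3 (-0.038), Fcgr4 (-0.11) and Fcer1g (-0.24); the cause was not tested. Each of the 5 genes kept a positive value under the other alternatives run. With DESeq2 and the replicate block Fcgr3 (0.85) and Fcer1g (0.75) passed the threshold, and with no filter on low counts as well only Fcgr3 (0.84) did. With the replicate block in edgeR no call changed. The count of genes called by genotype, 0 in edgeR, was 7 in DESeq2, 222 in DESeq2 with the block, 212 in that fit without a filter, 54 in edgeR with the block and without the library labelled Gata2 KO 2, and 0 in every other fit. Between library numbers it was 1249, and 2348 with no filter. With 3 libraries a group, the unblocked interval of each of the 4 activating genes spans more than 3 log2 units, so a missing call does not show equal levels.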
